A study of Homo sapiens with 31 samples.

Results

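Rita was added to H460 cells that also received B87 and DMKG, and the 4 libraries of that triple treatment, B87+DMKG+Rita, were set against the 4 libraries of B87+DMKG. These are 8 of the 31 RNA sequencing samples of the series, chosen by their labelled treatment and not by any measured value. H460 cells are a human line derived from a non-small cell carcinoma of the lung. Messenger RNA was poly(A)-selected with a stranded kit 6 h after treatment, and every sample pooled the cells of 2 wells. B87+DMKG+Rita cells received B87 at 1 µM, DMKG at 5 mM and Rita at 50 µM together. B87+DMKG cells received the same doses of B87 and DMKG without Rita, so both groups carry the complex I inhibitor and the α-ketoglutarate ester. Rita cells received Rita alone at 50 µM, and Control cells were untreated; these 2 groups of 4 show what Rita did without the combination. B87+DMKG+Nutlin-3 cells (4 libraries) received B87, DMKG and Nutlin-3 at 30 µM. All groups are 1 cell line. Nothing in the labels tells whether the 4 replicates were separate experiments. The p-values below therefore gauge only how much samples vary, which may be technical variation. In the limma tests this spread was pooled over all 31 samples, which also include B87, DMKG and Nutlin-3 alone.

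B87 (BAY87-2243) inhibits complex I of the respiratory chain, the enzyme that passes electrons from NADH to ubiquinone. DMKG (dimethyl α-ketoglutarate) enters cells and is cleaved to α-ketoglutarate, an intermediate of the tricarboxylic acid cycle. Rita is described as binding p53 and disturbing its contact with MDM2, the ubiquitin ligase that targets p53 for degradation, and Nutlin-3 fills the p53 pocket of MDM2. p53 is a transcription factor that raises genes of growth arrest and apoptosis. In the integrated stress response, kinases that sense amino acid shortage, unfolded protein, heme loss or viral RNA phosphorylate the translation factor eIF2α, and translation of the transcription factor ATF4 then increases. ATF4 raises genes of amino acid supply and, with CHOP (gene DDIT3), of cell death.

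The question addressed is how Rita altered the response of H460 cells to B87+DMKG. Values are the normalized read counts that were deposited. Log2 changes were taken on the log2(value + 1) scale, on which the change of a gene with few reads is understated. The words rose and fell are used for genes that limma called at an adjusted p below 0.05 (Benjamini-Hochberg, over all 16259 rows tested), and ± beside a log2 change gives limma's standard error. Whole reads recovered from the values were 43.6 M to 73.9 M per library in the 8 libraries. They averaged 70.4 M ± 3.80 in B87+DMKG+Rita and 52.2 M ± 7.47 in B87+DMKG (SD, n = 4 each; exact permutation test, two-sided, p = 0.0286, the smallest that 4 against 4 allows). With no spike-in, changes are relative and not absolute. Giving every library the same total moved the median log2 change of all rows by -0.24, so changes of that size depend on the scaling. Fewer cells of a kind and less RNA per cell cannot be told apart in bulk RNA.

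Libraries of B87+DMKG varied most among the groups, with a median SD of log2 values of 0.249, against 0.123 in B87+DMKG+Rita. The pooled spread may thus understate the error of B87+DMKG. A limma fit of only the 2 groups compared called 10365 rows, against 10937 with all groups. The share of values in rows of the mitochondrial genome was 2.83% ± 0.417 in B87+DMKG+Rita and 4.84% ± 2.21 in B87+DMKG (SD, n = 4 each; exact permutation test, two-sided, p = 0.143), and B87+DMKG libraries 1 and 2 had the highest shares. Control library 3 stood apart in stress genes, as CHAC1 below shows. A call that was lost without B87+DMKG libraries 1 and 2 is given beside its gene. Of the 18 rows of the mitochondrial genome that were tested 14 rose with Rita (77.8%, against 33.1% of all rows). None fell, against 34.2% of all rows, and the median log2 change was 2.25. This count weighs every row alike, whereas the share is a sum of values. The count therefore does not show that mitochondrial RNA as a whole rose. Rita over Control raised 16 of these rows and lowered none, where 25.8% of all rows were higher and 26.3% lower. B87+DMKG over Control raised 2 and lowered 12, where 30.2% of all rows were higher and 30.8% lower. The B87+DMKG libraries enter that comparison and B87+DMKG+Rita over B87+DMKG with opposite sign. Epithelial keratins were abundant in all groups, with means of 99019 for KRT18 in B87+DMKG+Rita and 53633 in B87+DMKG, while CDH1 was too low to be tested. Of the 8 leukocyte markers CD14 alone was tested, since CD68 had no row of its own and the others were too low. Of the 6 endothelial markers KDR alone reached the level needed for testing, and of the 7 fibroblast markers 5. CD14 rose (log2 change 1.59), KDR fell (-2.41) and COL1A1 rose (0.96). LUM was called higher (0.58), but not with the same total in every library (0.34, adjusted p = 0.104). COL3A1 was called lower (-0.30), but not without B87+DMKG libraries 1 and 2 (adjusted p = 0.123), without B87+DMKG+Rita library 2 (0.0577) or with quantile scaling (0.169). The part of such markers in the results below was not tested.

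Adding Rita changed most of the measured transcriptome. In B87+DMKG+Rita over B87+DMKG, 10937 of 16259 rows (67.3%) passed the test, of which 5383 rose (33.1% of the rows tested) and 5554 fell (34.2%). Among larger changes falls were more frequent, since 1515 rows rose (9.32%) and 2771 fell (17%) by at least 1 on the log2 scale. The 2 groups did not overlap in 9644 rows (59.3%). With the same total in every library the calls numbered 10762, of which 32.7% were rises, against 49.2% before that scaling. A count for a gene group is therefore read beside these shares.

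The largest rises and falls were ranked among called single-gene rows that averaged at least 50 normalized reads over the 8 libraries. Groups that do not overlap were also required, so for genes named by this ranking that is no separate result. FAM71A (chromosome 1, 212797787 to 212800120 on hg19) had the largest rise and was not detected without Rita. B87+DMKG+Rita libraries had 590, 350, 553 and 623 normalized reads, against 0, 0, 0 and 0 in B87+DMKG libraries. Control libraries and B87+DMKG+Nutlin-3 libraries were also at 0, while Rita libraries had 265, 289, 321 and 254. Set against a floor of 3 reads per library, the level in B87+DMKG+Rita was at least 162-fold higher than in B87+DMKG. The row of FAM71A starts 3669 bases after the end of the row of ATF3, which rose in the same libraries.

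CHAC1 (chromosome 15, 41245636 to 41248717), which encodes an enzyme that degrades glutathione and is a target of ATF4 and CHOP, came next. Normalized read counts were 5719, 5804, 5674 and 5778 in B87+DMKG+Rita libraries, against 36.9, 69.3, 12.5 and 36.3 in B87+DMKG libraries. The log2 change was 7.40 ± 0.36 (limma adjusted p = 3.9e-17). Rita libraries had 3938, 4091, 3990 and 4692, and Control libraries 3164, 3369, 710 and 3114, of which library 3 was the lowest by far. CHAC1 in B87+DMKG was thus far below Control, and with Rita it was above Control by a log2 change of 1.38, or 0.84 without Control library 3.

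The 12 largest rises also held ADM2 (4.39), GDF15 (4.36), KIAA1683 (5.71), SHISA2 (5.68), SOCS1 (5.48), C11orf96 (5.14), ADAMTSL4-AS1 (5.06), ASTL (4.91), TMEM88 (4.86) and NPPC (4.58), as log2 changes. SOCS1 encodes an inhibitor of cytokine receptor signalling through JAK kinases. It had 86.8, 100, 102 and 122 normalized reads in B87+DMKG+Rita libraries, against 0, 0, 1.78 and 9.09 in B87+DMKG libraries. NPPC encodes C-type natriuretic peptide and SHISA2 a modulator of Wnt and FGF receptor maturation. Apart from ADM2 and GDF15, these genes averaged 1.62 to 10.8 normalized reads in B87+DMKG, so the size of their fold change rests on few reads.

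Genes of the integrated stress response rose together. Of the 26 members tested 23 rose and none fell (88.5% rose, against 33.1% over all rows), with a median log2 change of 1.46, against 0.00 over all rows. With the same total in every library 22 rose and 1 fell. The 3 members that did not pass the test were SLC7A11, the cystine transporter (0.28 ± 0.19, adjusted p = 0.199), PPP1R15A, the phosphatase subunit that reverses eIF2α phosphorylation (0.03), and ALDH1L2 (-0.15), a mitochondrial folate enzyme. SLC7A11 passed when B87+DMKG+Rita library 4 was left out (adjusted p = 0.0455), and ALDH1L2 was called lower with the same total in every library (adjusted p = 0.0447).

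ATF4 (chromosome 22, 39916564 to 39918690), the transcription factor at the centre of this response, had 80150, 77237, 79185 and 79411 normalized reads in B87+DMKG+Rita libraries, against 28312, 29136, 30640 and 31477 in B87+DMKG libraries. The groups did not overlap, and the log2 change was 1.40 ± 0.07. Control libraries had 40947 to 56854, between the 2 groups. Its dimerization partner CEBPG rose as well (log2 change 1.47), and so did CEBPB (2.59).

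Regulators downstream of ATF4 had larger log2 changes than ATF4. DDIT3, which encodes CHOP, had 530, 491, 567 and 535 normalized reads in B87+DMKG+Rita libraries, against 43.6, 46.7, 40.1 and 50.5 in B87+DMKG libraries (3.53 ± 0.25, adjusted p = 3.2e-13). TRIB3, a pseudokinase that restrains ATF4 and AKT, had 7147, 7062, 7027 and 7021 with Rita, against 729, 560, 910 and 963 without it (3.19 ± 0.17). The B87+DMKG libraries were low in both genes, at levels below those of all Control libraries for TRIB3 (2453 to 4381). SESN2, an inhibitor of mTORC1 that senses leucine, had 3171, 3127, 3357 and 2988 in B87+DMKG+Rita libraries, against 170, 271, 234 and 259 in B87+DMKG libraries (3.77 ± 0.20).

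Amino acid supply followed. ASNS, asparagine synthetase (chromosome 7, 97481425 to 97601662), had 17129, 15363, 16581 and 16582 normalized reads in B87+DMKG+Rita libraries, against 2522, 1835, 2464 and 2187 in B87+DMKG libraries. The groups did not overlap, and the log2 change was 2.88 ± 0.12 (adjusted p = 1.7e-18). The serine synthesis genes PHGDH (1.28), PSAT1 (1.73) and PSPH (1.39), the amino acid transporter subunits SLC3A2 (1.18) and SLC7A5 (1.16) and the mitochondrial folate enzyme MTHFD2 (1.68) rose. ADM2, the secreted peptide intermedin, had 1472, 1374, 1326 and 1811 in B87+DMKG+Rita libraries, against 47, 90.7, 79.3 and 69.7 in B87+DMKG libraries. STC2 (3.15), a secreted glycoprotein, and NUPR1 (3.00), a chromatin protein of stressed cells, completed the large rises.

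**Figure D1:**
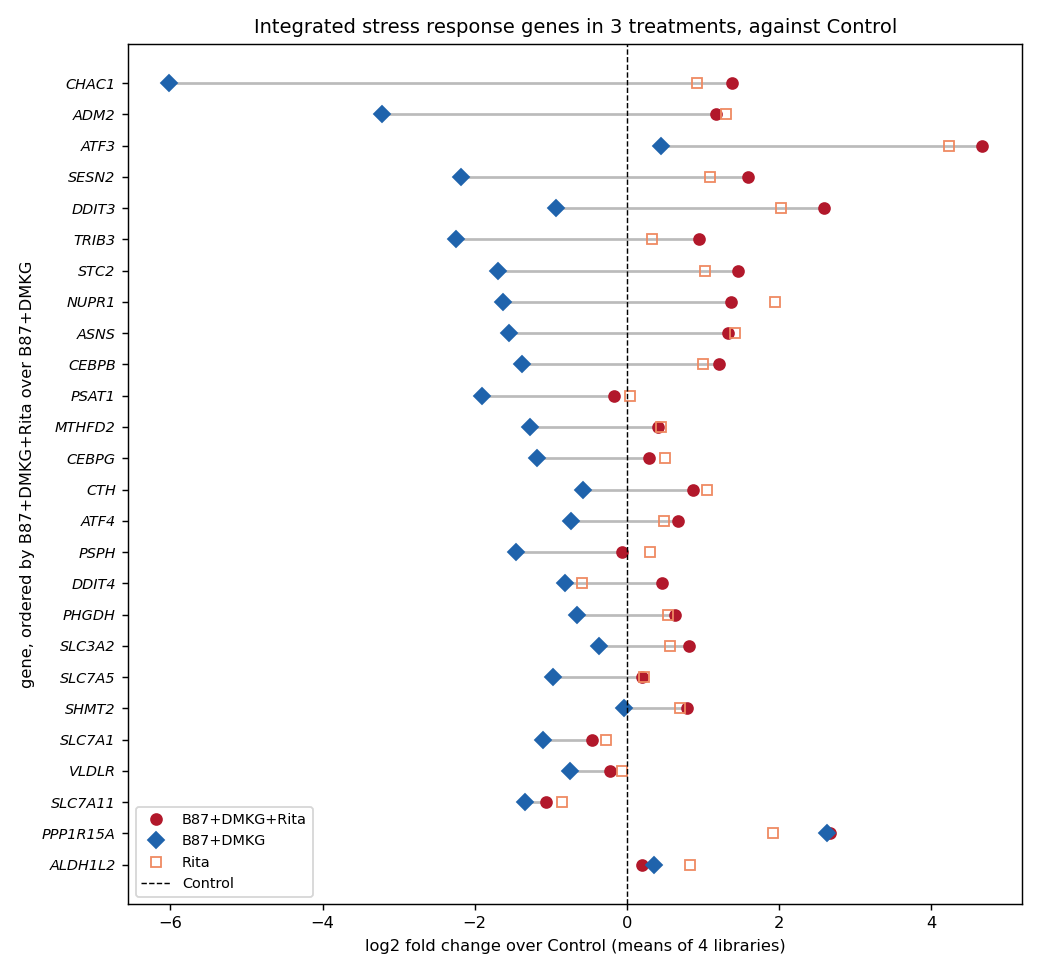
Log2 fold change over Control (x axis) of the 26 integrated stress response genes tested (y axis, ordered by their change in B87+DMKG+Rita over B87+DMKG), with filled circles for B87+DMKG+Rita, diamonds for B87+DMKG and open squares for Rita, from means of 4 libraries. In B87+DMKG 22 genes were called below Control and 1 above, whereas in B87+DMKG+Rita 20 were above and 2 below.

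Set against Control, the triple treatment had 20 of these 26 genes above and 2 below. Over all rows that comparison called 60.1%, with 29.4% higher and 30.7% lower. B87+DMKG had 1 gene above Control and 22 below, where 61% of all rows were called, 30.2% higher and 30.8% lower. Rita alone raised 19 and lowered 2, where 52.1% of all rows were called, 25.8% higher and 26.3% lower. The 3 comparisons share the Control libraries. B87+DMKG over Control also shares the B87+DMKG libraries with B87+DMKG+Rita over B87+DMKG, where they enter with the opposite sign. An error in their level thus moves these comparisons in opposite directions. The test of the difference, which is the effect of Rita with B87+DMKG minus its effect without, passed for 20 genes in the positive direction and for 2 in the negative, against 24.2% and 24.4% of all rows (48.6% in all). Without Control library 3 the test of the difference passed for 22 and 2, while the triple treatment had 18 genes above Control and 4 below, and Rita alone 17 and 4. CHAC1 had the largest such difference (6.48 ± 0.50, adjusted p = 3.0e-11), followed among the members by ADM2 (3.09), TRIB3 (2.86) and SESN2 (2.68). The negative differences were those of PPP1R15A (-1.89) and ALDH1L2 (-0.98). ATF3 had none that could be detected (-0.01 ± 0.35, adjusted p = 0.978), since its log2 change was 4.21 with B87+DMKG and 4.23 without.

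ATF4 pairs with C/EBP proteins on amino acid response elements. The element was searched as TGATGNAA on both strands in RefSeq promoters (250 bases before to 50 after the start, GRCh38.p14). Of the 29 listed genes 24 had a promoter in that table, and 6 of these (25%) held a match, against 3.67% of all 27305 promoters. A match is a description of letters and not of binding. A further 7 motifs were searched in promoters of other lists, on both strands. The p53 response element occurred in 0 of 35 promoters of p53 targets, against 0.0183% of all promoters. Among 21 promoters of immediate early genes, the CArG box occurred in 2 (9.52%, against 1.29% of all), the cAMP response element TGACGTCA in 2 (9.52%, against 1.98%), the AP-1 site TGACTCA in 1 (4.76%, against 4.92%) and the TATA box TATAAA in 5 (23.8%, against 12%). The antioxidant response element TGACNNNGC occurred in 4 of 17 promoters of NRF2 targets (23.5%, against 13.6%), and the hypoxia core is given with its genes. The promoters of CHAC1, which had the largest change in the list, and of 2 amino acid supply genes are shown, with the matched letters in capitals. The match lies at -209 to -202 from the start in CHAC1 (chr15:40953221-40953520, plus strand), at -68 to -61 in ASNS (chr7:97872359-97872658, minus strand) and at 37 to 44 after the start in SLC3A2 (chr11:62881449-62881748, plus strand).
CHAC1: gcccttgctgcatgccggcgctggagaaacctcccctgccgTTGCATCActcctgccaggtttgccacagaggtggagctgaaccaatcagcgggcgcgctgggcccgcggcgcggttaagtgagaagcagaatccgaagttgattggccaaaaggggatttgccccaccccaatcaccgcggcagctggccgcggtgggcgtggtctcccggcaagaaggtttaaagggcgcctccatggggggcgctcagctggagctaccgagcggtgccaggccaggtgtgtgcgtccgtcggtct
ASNS: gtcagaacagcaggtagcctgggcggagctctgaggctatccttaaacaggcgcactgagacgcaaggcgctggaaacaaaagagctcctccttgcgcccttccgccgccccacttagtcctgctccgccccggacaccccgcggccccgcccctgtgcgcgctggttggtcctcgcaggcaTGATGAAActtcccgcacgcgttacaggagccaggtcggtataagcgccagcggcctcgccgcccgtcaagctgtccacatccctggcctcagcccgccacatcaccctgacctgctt
SLC3A2: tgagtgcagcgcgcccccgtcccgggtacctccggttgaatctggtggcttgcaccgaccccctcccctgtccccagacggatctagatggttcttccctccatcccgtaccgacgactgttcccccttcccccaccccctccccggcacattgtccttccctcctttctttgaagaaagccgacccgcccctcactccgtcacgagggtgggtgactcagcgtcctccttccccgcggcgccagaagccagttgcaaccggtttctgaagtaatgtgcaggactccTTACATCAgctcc
In CHAC1 and SLC3A2 the capitals are the reverse complement of the element, and in ASNS they are the element itself. These 3 genes rose by log2 changes of 7.40, 2.88 and 1.18.

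Of the 20 cytosolic aminoacyl-tRNA synthetases, which charge transfer RNAs and many of which are ATF4 targets, 17 rose and 1 fell, with a median log2 change of 0.36. SARS (1.10), CARS (0.94), GARS (0.85), WARS (0.83) and FARSB (0.81) changed most, and LARS fell (-0.24). With the same total in every library 9 rose and 3 fell. Genes of protein folding in the endoplasmic reticulum rose in 16 of 21 and fell in 2, with a median of 0.45. XBP1, a transcription factor of the unfolded protein response, had 24037, 25596, 25608 and 26311 normalized reads in B87+DMKG+Rita libraries, against 3194, 2761, 3246 and 3314 in B87+DMKG libraries (3.02 ± 0.12). The other members changed less, with CRELD2 (1.15) rising and the co-chaperone DNAJC3 falling (-0.52). SDF2L1 (0.83) was not called without B87+DMKG libraries 1 and 2 (0.38, adjusted p = 0.117), nor the chaperone HSPA5 (0.56) with quantile scaling (0.14, adjusted p = 0.0669). Same-total scaling gave 11 rises and 3 falls in this list, with a median of 0.21.

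p53 targets formed the second large group. Of 42 members tested 30 rose and 4 fell (71.4% and 9.52%, against 33.1% and 34.2% of all rows), with a median log2 change of 0.94. With the same total in every library 26 rose and 7 fell, and the median was 0.70. MDM2 (chromosome 12, 69195239 to 69239324), both target and inhibitor of p53, had 8017, 7555, 8161 and 7154 normalized reads in B87+DMKG+Rita libraries, against 4544, 4004, 4092 and 3683 in B87+DMKG libraries. Its log2 change was 0.92 ± 0.09 (adjusted p = 1.3e-10), and Rita alone reached 9969 to 11750, above both groups.

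The cell cycle inhibitor CDKN1A (p21) had 33118, 32238, 33086 and 34338 normalized reads in B87+DMKG+Rita libraries, against 5023, 4706, 5811 and 6428 in B87+DMKG libraries. The groups did not overlap, and the change of 2.61 ± 0.10 was close to that of Rita over Control (2.73; difference -0.12 ± 0.14, adjusted p = 0.494). BTG2, an antiproliferative factor, had 11146, 9058, 10160 and 10738 in B87+DMKG+Rita libraries, against 1179, 1337, 1062 and 900 in B87+DMKG libraries (3.21 ± 0.10; difference -0.20 ± 0.14, adjusted p = 0.231). For these genes, and for MDM2 (difference 0.16 ± 0.12) and GADD45A (2.32; difference -0.20), a difference in the effect of Rita was not detected.

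GDF15 rose more with B87+DMKG than without it. This gene, a secreted stress cytokine that ATF4 and CHOP also raise, had 25817, 27805, 28061 and 30248 normalized reads in B87+DMKG+Rita libraries, against 1191, 1025, 1587 and 1761 in B87+DMKG libraries. The change was 4.36 ± 0.18, and the difference from Rita over Control was 1.18 ± 0.26 (adjusted p = 3.6e-04). PLK2 (2.24), SESN1 (2.10), PHLDA3 (1.58), TNFRSF10B (1.55), a death receptor, and CCNG2 (1.52), a cyclin of arrested cells, rose too. The members that fell were PIDD1, FAS, CASP8 and APAF1, with log2 changes of -0.93, -0.93, -0.92 and -0.84; all 4 act in death receptor, caspase or apoptosome signalling. BAX (0.16) and ZMAT3 (-0.44) did not pass the test, though BAX passed when B87+DMKG library 4 was left out, and ZMAT3 was called lower with the same total in every library (-0.68). Over the 42 targets the difference with minus without B87+DMKG passed for 19 in the positive and 7 in the negative direction. Over all rows 24.2% were positive and 24.4% negative.

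**Figure D2:**
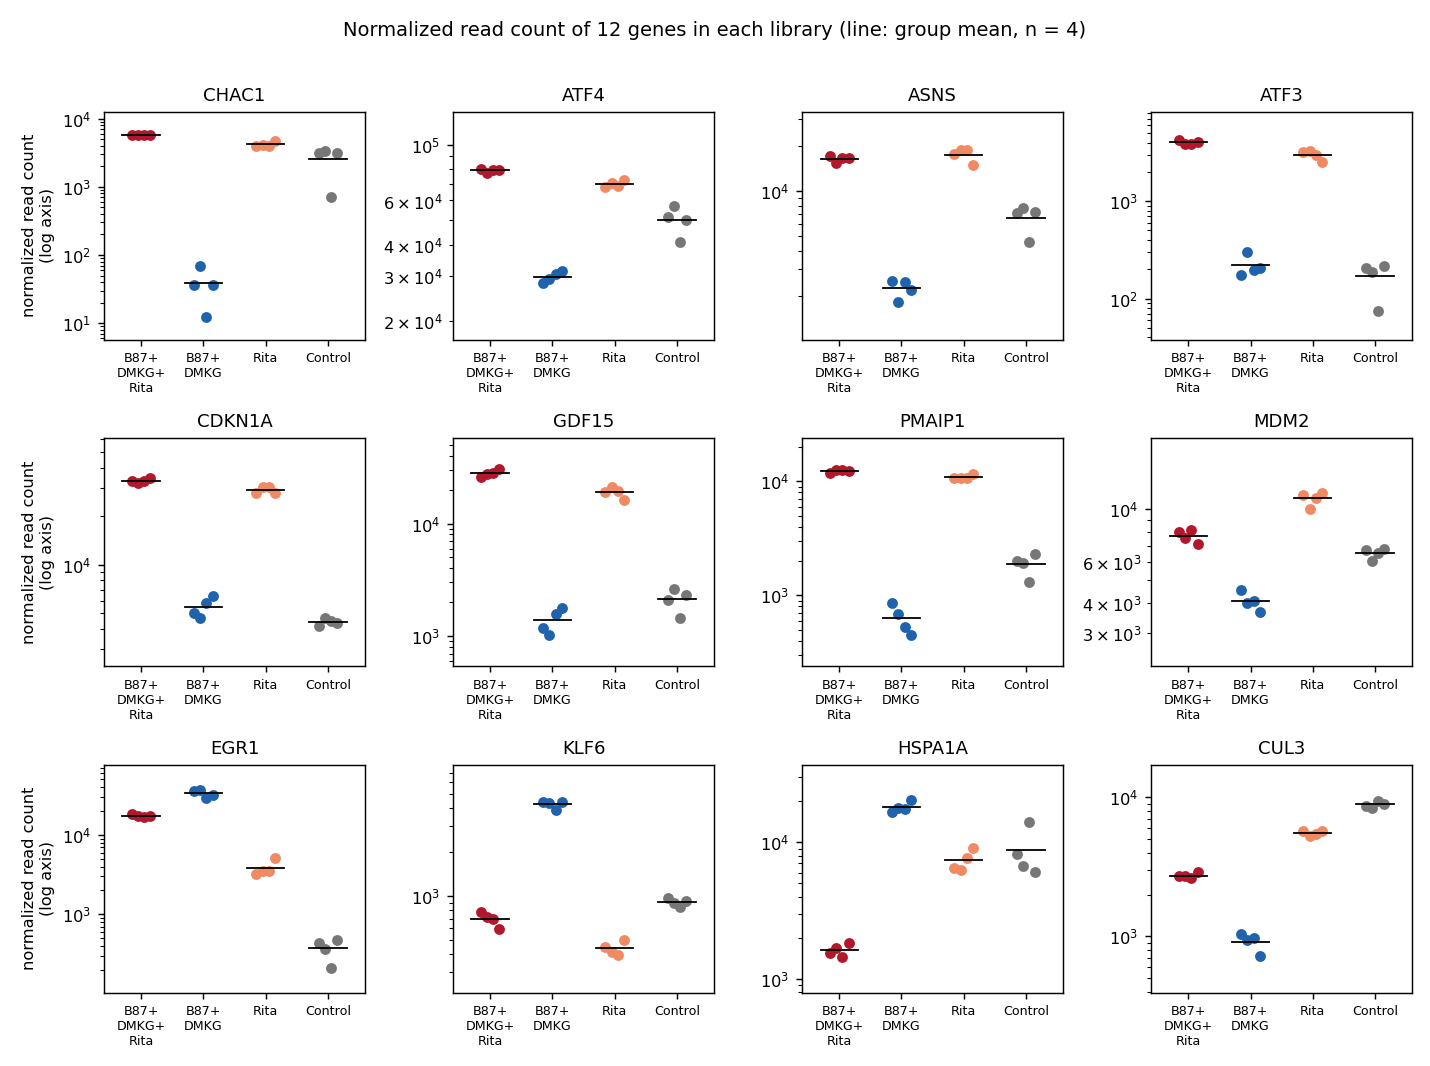
Normalized read count (y axes, log scale) of 12 genes in each library of B87+DMKG+Rita, B87+DMKG, Rita and Control, with points for libraries and lines for group means (n = 4). B87+DMKG+Rita and B87+DMKG do not overlap in any of the 12 genes, nor in 59.3% of all rows tested. CHAC1 and GDF15 were named by a ranking that required this. CHAC1 lies at 12.5 to 69.3 in B87+DMKG and is above 5600 in B87+DMKG+Rita.

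In the list of BCL2 family members and caspases, BH3-only genes, whose products set off mitochondrial apoptosis, rose most. PMAIP1, BBC3, BAX, CASP8 and APAF1 also belong to the list of p53 targets and were counted there. PMAIP1 (NOXA) had 11769, 12638, 12607 and 12314 normalized reads in B87+DMKG+Rita libraries, against 867, 691, 530 and 453 in B87+DMKG libraries (4.32 ± 0.15, adjusted p = 5.6e-20). BBC3 (PUMA) had 1316, 1395, 1484 and 1647 with Rita, against 176, 224, 231 and 294 without it (2.67 ± 0.18). B87+DMKG libraries lay below the Control libraries in PMAIP1 (1315 to 2290) and overlapped them in BBC3 (239 to 318). BIK (3.79 ± 0.60), BMF (2.33 ± 0.53) and BCL2L11 (1.19), which encodes BIM, also rose, BIK and BMF from few reads; BMF did not pass when B87+DMKG libraries 1 and 2 were left out (0.90, adjusted p = 0.0653).

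Survival members of the family differed. BCL2 had 70.1, 92.5, 94.5 and 61.2 normalized reads in B87+DMKG+Rita libraries, against 213, 212, 151 and 206 in B87+DMKG libraries (-1.30 ± 0.18). BCL2L1 (BCL-XL) fell too (-0.74 ± 0.10), whereas MCL1 showed no detectable change (0.07 ± 0.16, adjusted p = 0.72). Of the caspases, CASP8 (-0.92) and CASP2 (-0.81) fell. Of the 30 members tested 13 rose and 9 fell (median 0.18), while scaling libraries to 1 total gave 8 rises and 11 falls with a median of -0.06. PARP1, a DNA repair enzyme cleaved by caspases, was called higher (0.20) but had the opposite sign with the same total in every library (-0.05).

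Immediate early genes, which growth factor and stress signals switch on within minutes, changed in opposite directions. EGR1 was high in B87+DMKG and lower with Rita: 18212, 17392, 16777 and 17383 normalized reads in B87+DMKG+Rita libraries, against 35769, 37022, 29010 and 32180 in B87+DMKG libraries (-0.94 ± 0.20, adjusted p = 1.2e-04). Both groups were far above the 214 to 470 of Control. KLF6, a zinc finger factor, had 779, 712, 696 and 591 in B87+DMKG+Rita libraries, against 4402, 4312, 3892 and 4380 in B87+DMKG libraries (-2.62 ± 0.12), and the triple treatment ended below Control (838 to 961).

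Of the AP-1 genes in the list, which belong to the FOS and JUN families, all but FOSL1 (0.29, adjusted p = 0.0639) rose. FOSB had 2349, 2283, 2248 and 2578 normalized reads in B87+DMKG+Rita libraries, against 535, 548, 545 and 766 in B87+DMKG libraries (2.00 ± 0.30). FOS had 6841, 6832, 6612 and 6783 with Rita, against 3842, 3965, 4241 and 4429 without it (0.72 ± 0.20, adjusted p = 0.00248). The groups did not overlap in either gene, and FOS missed the threshold when libraries were scaled to the same total of non-mitochondrial rows (adjusted p = 0.052). JUN (1.39) and JUNB (1.61) rose, as did IER5 (3.17), IER3 (2.64) and MYC (1.04), while KLF2 (-1.31), the mRNA decay factor ZFP36 (-0.96) and NR4A3 (-0.62) fell. NR4A3 did not pass without B87+DMKG libraries 1 and 2 (adjusted p = 0.134).

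ATF3, a stress-induced repressor that both p53 and ATF4 raise, belongs to this list and to that of the stress response. It had 4234, 3867, 3855 and 4066 normalized reads in B87+DMKG+Rita libraries, against 176, 299, 199 and 204 in B87+DMKG libraries (4.21 ± 0.25). B87+DMKG libraries were near Control (74 to 215). Over the 28 immediate early genes 14 rose and 5 fell (50% and 17.9%, against 33.1% and 34.2% of all rows), with a median of 0.59. With the same total in every library 12 rose and 6 fell, and the median was 0.35. The difference of the Rita effect with minus without B87+DMKG was negative for 11 and positive for 5, against 24.4% and 24.2% of all rows. It was -4.32 ± 0.28 for EGR1, -2.75 for FOSB and -2.13 for JUN. Rita over Control gave log2 changes of 3.39, 4.75 and 3.52 for these 3 genes.

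Feedback genes and ligands of MAPK signalling rose in 13 of 23 and fell in 1 (median 0.31). The median depended on the scaling, with 0.07 (10 rises and 3 falls) under the same total and 0.70 under quantile scaling. HBEGF, a ligand of the epidermal growth factor receptor, had 2698, 2608, 2558 and 2846 normalized reads in B87+DMKG+Rita libraries, against 109, 180, 175 and 172 in B87+DMKG libraries (4.10 ± 0.16). DUSP6, the phosphatase that acts on ERK, had 11916, 12475, 12295 and 10956 with Rita, against 3379, 3325, 3306 and 2886 without it (1.89 ± 0.07). Neither gene overlapped between the groups. SPRY1 (2.51) and ERRFI1 (2.34), which restrain receptor signalling, and AREG (1.73), another ligand, rose, and SPRED2 fell (-0.68). DUSP1 had a log2 change of 0.02 and did not pass.

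**Figure D3:**
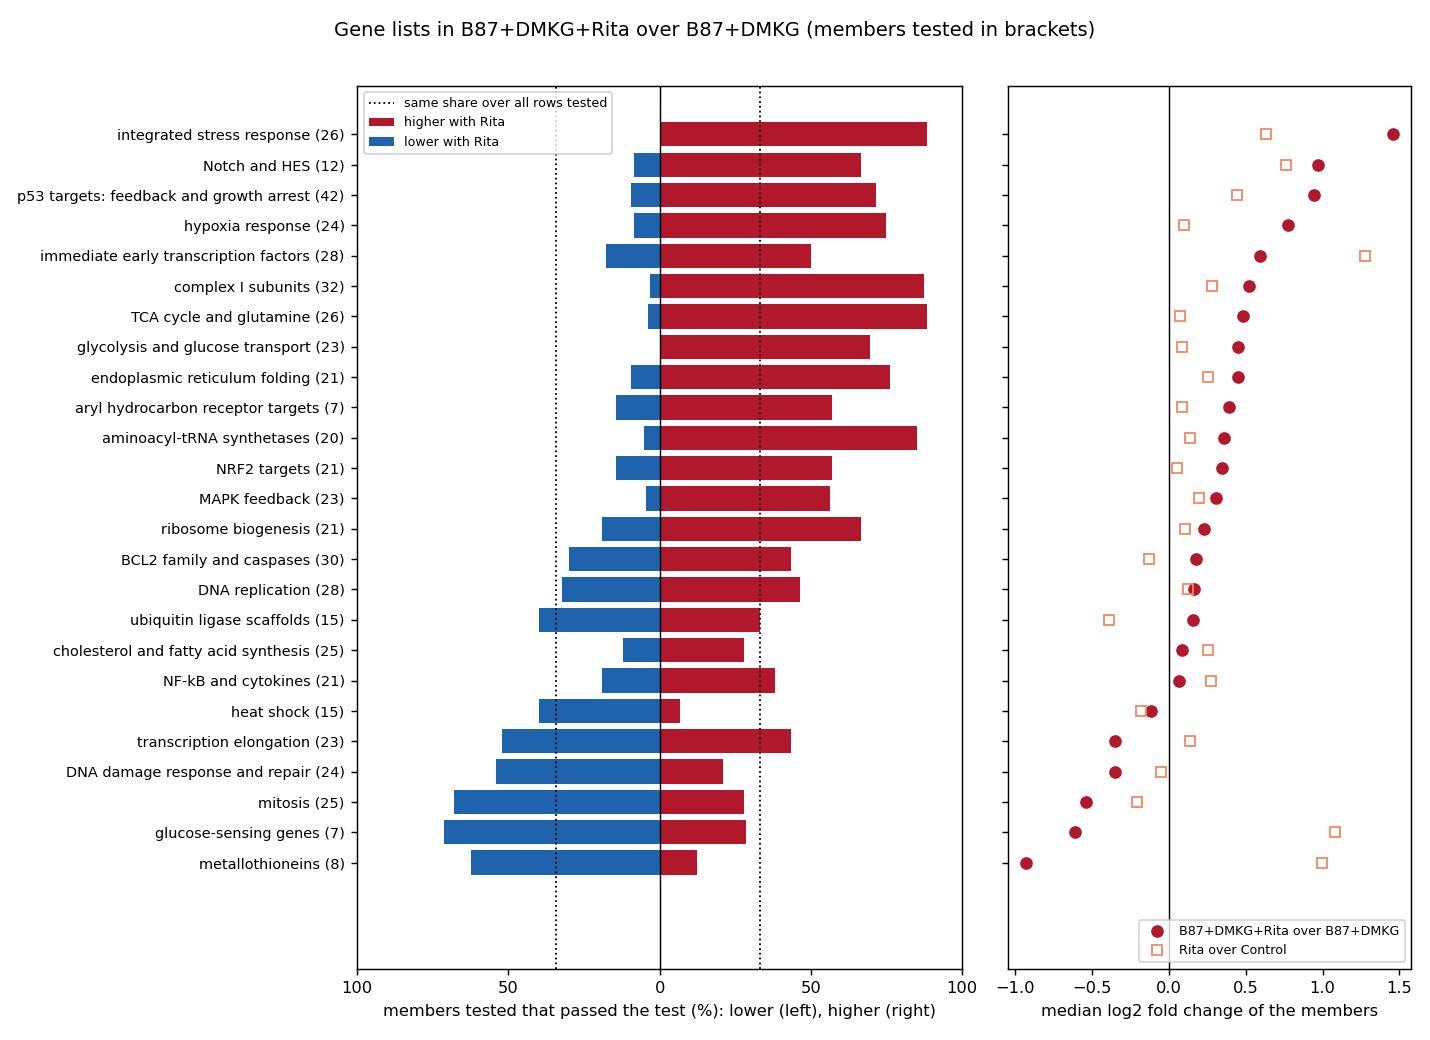
Left, share of the tested members of each list (number in brackets) that rose (right of 0) or fell (left of 0) in B87+DMKG+Rita over B87+DMKG, with dotted lines at the shares over all rows tested, 33.1% and 34.2%. Right, median log2 fold change of the members in B87+DMKG+Rita over B87+DMKG (circles) and in Rita over Control (squares). Lists of cell type markers are not plotted. Of those plotted the integrated stress response has the highest median, 1.46, and metallothioneins the lowest, -0.93. Over metallothioneins with a mean of at least 50 the median was -0.36, above the -0.61 of glucose-sensing genes.

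Some heat shock genes fell, by large factors in the inducible HSP70 genes. HSPA1A, an inducible HSP70 gene, had 1551, 1663, 1440 and 1838 normalized reads in B87+DMKG+Rita libraries, against 16598, 17826, 17507 and 20372 in B87+DMKG libraries (-3.48 ± 0.22, adjusted p = 2.5e-14). Its near-identical copy HSPA1B fell as well (-2.79), and reads of the 2 copies may have been shared between them. The constitutive HSPA8 had 75979, 79549, 78919 and 74010 with Rita, against 146033, 147586, 140226 and 131346 without it (-0.87 ± 0.10). DNAJB1 fell (-0.76) and HSPD1, a mitochondrial chaperonin, rose (0.56). Of 15 heat shock genes 6 fell (40%, against 34.2% of all rows) and 1 rose, with a median of -0.11. Same-total scaling gave 11 falls and 1 rise and a median of -0.36.

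Metallothioneins bind zinc and copper and follow the metal sensor MTF1. Of the 8 tested 5 fell (62.5%, against 34.2% of all rows), 1 rose and 2 did not pass, with a median log2 change of -0.93. Over members with a mean of at least 50 the median was -0.36. MT1G had 15.8, 34, 19.8 and 29 normalized reads in B87+DMKG+Rita libraries, against 615, 827, 735 and 571 in B87+DMKG libraries (-4.79 ± 0.77). MT2A had 5541, 5445, 5113 and 5275 with Rita, against 14625, 14006, 16958 and 14737 without it (-1.49 ± 0.23). The groups did not overlap in MT2A, and Control had 4.37 to 8.53 for MT1G. MT1F (-3.57) and MT1E (-1.56) fell too, MT1E with few reads. MT1E did not pass without B87+DMKG+Rita library 4 (adjusted p = 0.138), B87+DMKG library 1 (0.0544), B87+DMKG library 3 (0.0533) or B87+DMKG libraries 1 and 2 (0.0566), or with quantile scaling (0.0758). SLC30A1, the zinc exporter that also follows MTF1, rose (2.16). These short genes are close copies, so the split of reads among them is uncertain. The difference with minus without B87+DMKG for MT1G was -7.29 ± 1.09 (adjusted p = 2.7e-06), and Rita libraries had 31.4 to 41.9.

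Metabolic genes rose by small amounts in large numbers. Of 26 genes of the tricarboxylic acid cycle and glutamine use, 23 rose and 1 fell (median 0.48), with SUCLG1 (1.17), a subunit of succinyl-CoA ligase, and MDH1 (0.99) at the top and OGDH (-0.49), a subunit of the α-ketoglutarate dehydrogenase complex, falling. Of 32 nuclear complex I subunits, the target of B87, 28 rose and 1 fell (median 0.53), led by NDUFA2 (1.33) and NDUFB2 (1.18). With the same total in every library 14 and 19 rose in these lists, and 2 fell in each. Glycolysis and glucose transport had 16 rises and no fall among 23 (median 0.45), led by ALDOC (1.91), SLC2A3 (1.11) and LDHB (0.89). LDHA had 0.40, but 0.00216 (adjusted p = 0.981) with quantile scaling and 0.13 (adjusted p = 0.0841) with the same total without mitochondrial rows. HK2 had 0.26, with the opposite sign (-0.01) under the same total without mitochondrial rows, and was not called without B87+DMKG libraries 1 and 2 (0.22, adjusted p = 0.0906), with the same total (0.02) or with quantile scaling (0.13). SLC2A1 did not pass (0.07). Same-total scaling left 13 rises and 4 falls. Cholesterol and fatty acid synthesis had 7 rises and 3 falls of 25, with SREBF1 (0.91) rising and ACACA (-1.44) falling, and ribosome biogenesis 14 rises and 4 falls of 21. Under same-total scaling the cholesterol and fatty acid list had 3 rises and 9 falls and its median log2 change was -0.15, against 0.09 otherwise. Ribosome biogenesis then had 9 rises and 6 falls and a median of -0.0099, against 0.23.

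Genes of the hypoxia response rose in 18 of 24 and fell in 2 (median 0.78). VEGFA, the angiogenic growth factor, had 8500, 8129, 8349 and 8425 normalized reads in B87+DMKG+Rita libraries, against 2722, 2933, 2334 and 2111 in B87+DMKG libraries (1.74 ± 0.11). Several members, VEGFA and DDIT4 among them, are also ATF4 targets. ANKRD37 (2.51), ADM (1.62) and EPAS1 (1.48), which encodes HIF-2α, rose. PPFIA4 (-2.11) and HIF1A (-0.29) fell, though HIF1A did not pass without B87+DMKG libraries 1 and 2 (-0.01), when either of them or B87+DMKG+Rita library 1, 3 or 4 was left out (adjusted p = 0.0512 to 0.188), or with a replicate block (0.0507). CA9, a marker of hypoxic tumours, had means of 4.99 with Rita and 1.73 without it and did not pass (1.18 ± 0.68, adjusted p = 0.126). The hypoxia core ACGTG, searched on both strands, occurred in 13 of the 21 promoters found (61.9%), against 21.6% of all promoters.

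Among the 7 glucose-sensing genes 5 fell and 2 rose. TXNIP, the thioredoxin inhibitor that follows glucose supply, had 513, 446, 470 and 423 normalized reads in B87+DMKG+Rita libraries, against 625, 951, 702 and 587 in B87+DMKG libraries (-0.61 ± 0.16, adjusted p = 0.00154). The groups did not overlap, and Rita alone had 1671 to 2223, above both. MLXIPL (-1.57), the glucose-responsive factor ChREBP, and OGT (-1.42) fell, and the arrestin relatives ARRDC3 (2.51) and ARRDC4 (2.32) rose. Of 21 NRF2 targets 12 rose and 3 fell (median 0.34), while same-total scaling gave 9 rises and 6 falls (median 0.10) and quantile scaling a median of 0.01. The list had AKR1C2 (0.97), one of several close copies, at the top, and ABCC2 (-1.44) and HMOX1 (-0.50) fell.

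Some cytokine genes rose, though the list as a whole was near the share of all rows. IL1A had 1045, 958, 1016 and 860 normalized reads in B87+DMKG+Rita libraries, against 66, 119, 76.6 and 66.6 in B87+DMKG libraries (3.59 ± 0.25). IL1B (3.53) and TNF (2.51) rose, both with few reads in B87+DMKG. IL6 (1.87) rose as well, with means of 27685 in B87+DMKG+Rita and 7764 in B87+DMKG, and NFKB1 fell (-0.76). Of the 21 members 8 rose (38.1%, against 33.1% of all rows) and 4 fell, with a median of 0.07 that became -0.18 with the same total. In the Notch list 8 of 12 rose and 1 fell. DLL4, a Notch ligand, had 115, 81.2, 86.4 and 93.3 in B87+DMKG+Rita libraries, against 6.71, 2.67, 0 and 5.05 in B87+DMKG libraries (4.70 ± 0.74), and the Notch target NRARP rose by 3.04 ± 0.14. CYP1A1 (2.90) and CYP1B1 (2.21), enzymes induced through the aryl hydrocarbon receptor, rose, CYP1A1 to a mean of 50.4 with Rita, against 6.32 without it and 47.4 in Control.

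Cell division genes fell on balance. Of 25 mitosis genes 17 fell and 7 rose (median -0.54), or 17 and 1 with the same total. The motor protein gene CENPE had 1924, 1551, 1867 and 1543 normalized reads in B87+DMKG+Rita libraries, against 8338, 7753, 4805 and 4430 in B87+DMKG libraries (-1.83 ± 0.20), where libraries 1 and 2 were highest. MKI67, the proliferation marker, had 22126, 18175, 20889 and 17999 with Rita, against 64269, 69372, 49692 and 49092 without it (-1.54 ± 0.14), while Control had 20944 to 29741. CENPF (-1.41), ECT2 (-1.13) and AURKA (-1.13) fell and CDK1 rose (0.59). The replication list was mixed, with 13 rises and 9 falls of 28, CCNE1 (1.49) and PCNA (0.94), itself a p53 target, rising and POLE (-0.96) falling. Its median was 0.17, and -0.08 with the same total.

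DNA repair genes fell in 13 of 24 and rose in 5 (median -0.35), or 16 and 1 with the same total, with XRCC2 (-1.85), TP53BP1 (-1.24) and BRCA1 (-1.16) falling and the histone gene H2AFX (1.07) rising. Transcription elongation genes changed in both directions, with 10 rises and 12 falls of 23, or 6 and 13 with the same total. POLR2A, the largest subunit of RNA polymerase II, had 31455, 29405, 29628 and 30766 normalized reads in B87+DMKG+Rita libraries, against 13458, 13979, 13475 and 15060 in B87+DMKG libraries (1.12 ± 0.08). CCNT1, the cyclin of the elongation kinase P-TEFb, had 903, 758, 869 and 628 with Rita, against 258, 249, 210 and 237 without it (1.71 ± 0.19), and CCNT2 (1.30), MEPCE (1.45) and HEXIM1 (0.55), of the complex that holds P-TEFb inactive, rose. CDK12, a kinase needed for long transcripts, had 2721, 2594, 2573 and 2166 in B87+DMKG+Rita libraries, against 7779, 7254, 6310 and 6718 in B87+DMKG libraries (-1.48 ± 0.13). AFF1 (-1.44) fell as well.

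Ubiquitin ligase scaffolds changed in both directions, with 5 rises (33.3%) and 6 falls (40%) of 15, near the shares of all rows. CUL3, scaffold of the KEAP1 ligase, had 2718, 2702, 2614 and 2881 normalized reads in B87+DMKG+Rita libraries, against 1033, 943, 979 and 717 in B87+DMKG libraries (1.58 ± 0.11). Control had 8397 to 9439, so the triple treatment remained below Control by a log2 change of -1.70. UBL3, a membrane-anchored ubiquitin-like protein, had 609, 798, 753 and 662 in B87+DMKG+Rita libraries, against 107, 133, 101 and 108 in B87+DMKG libraries (2.64 ± 0.14). CUL5 (1.66) and CUL1 (0.72) rose and FBXW7 (-1.16) fell. The median of the list was 0.16, or -0.09 with the same total.

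The 12 largest falls held several genes of long genomic span and the small RNA rows MIR3153 and SNORD4B. They were MIR3153 (-6.63), RGPD1 (-6.61), LINC01002 (-6.29), LHX4-AS1 (-5.50), MAML2 (-4.82), MT1G (-4.79), GOLGA8A (-4.75), SNORD4B (-4.67), RGL1 (-4.54), MAML3 (-4.53), GLI2 (-4.44) and KCTD16 (-4.42). MAML2, a Notch coactivator that spans chromosome 11 from 95709757 to 96076382, had 20.2, 34, 9.9 and 12.4 normalized reads in B87+DMKG+Rita libraries, against 547, 680, 460 and 395 in B87+DMKG libraries (-4.82 ± 0.26). Its relative MAML3 had 22.8, 34, 17.1 and 24.9 with Rita, against 651, 675, 545 and 465 without it, and GLI2, a transcription factor of Hedgehog signalling, 36.8, 30.2, 31.5 and 33.2 with Rita, against 706, 831, 689 and 721 without it. All 3 were low in every Rita library and overlapped or exceeded their Control level in B87+DMKG. TET1, which oxidizes 5-methylcytosine with α-ketoglutarate as cosubstrate, fell as well (-4.35 ± 0.37).

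Span and direction went together across genes. Genes of under 5 kb had a median log2 change of 0.26, with 640 rises and 357 falls among 1485. Genes of 5 to 20 kb had 0.29 and those of 20 to 50 kb 0.17. The median was -0.10 from 50 to 100 kb, -0.45 from 100 to 250 kb and -0.64 from 250 kb on, where 449 of 735 genes fell and 80 rose. In Rita over Control the longest class had a median of -0.85, and in B87+DMKG over Control 0.04. With the same total in every library the shortest class had 0.02 and the longest -0.88. This is a description across genes, which are not replicates.

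**Figure D4:**
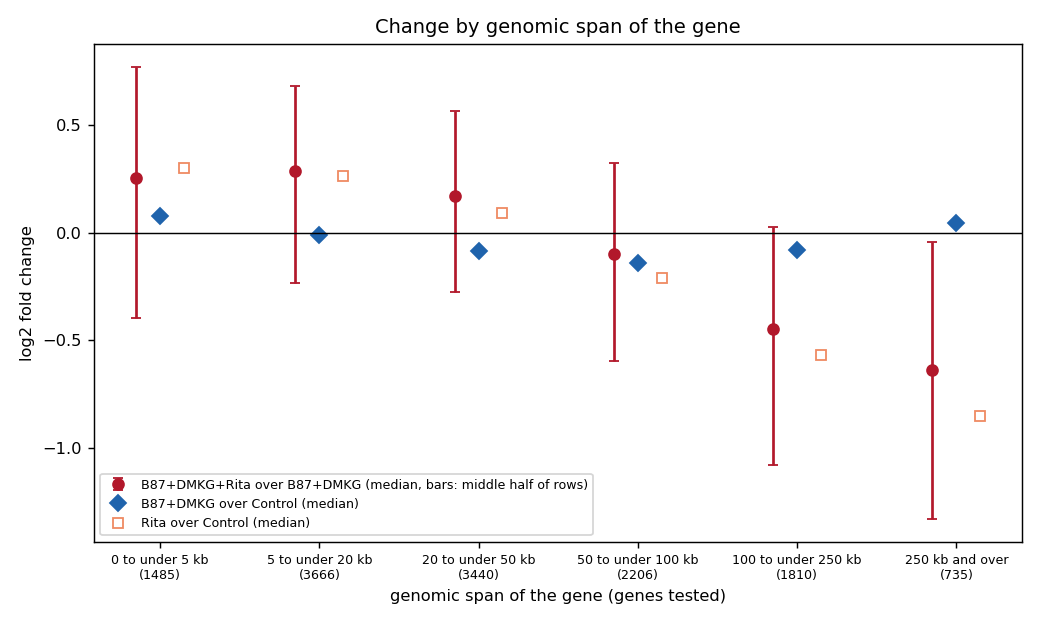
Median log2 fold change (y axis) by genomic span of the gene in the table (x axis, number of genes in brackets), for B87+DMKG+Rita over B87+DMKG (circles, with bars for the interquartile range), B87+DMKG over Control (diamonds) and Rita over Control (squares). The first and last medians are 0.26 and -0.64 for B87+DMKG+Rita over B87+DMKG.

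Rows of small RNAs and rows with no symbol fell more often than they rose. Of 142 rows named for a small RNA, which poly(A) selection does not capture as mature RNA, 92 fell and 14 rose (median -1.14). These rows were above Control in B87+DMKG (median 0.91). Both medians use the B87+DMKG libraries, with opposite sign. Of 2416 rows with no symbol 1130 fell and 392 rose. The nuclear long RNA MALAT1 had 1832, 1159, 2688 and 1608 normalized reads in B87+DMKG+Rita libraries, against 23333, 20771, 16396 and 15214 in B87+DMKG libraries (-3.42 ± 0.34), and averaged 1138 in Control. GOLGA8A, a golgin of a duplicated family whose reads cannot be assigned with certainty, had 72.7, 30.2, 47.7 and 34.2 with Rita, against 1057, 1289, 1103 and 1378 without it, and 56.9 to 105 in Control. The groups did not overlap in MALAT1. The sources do not say whether counting used the strand, so antisense genes such as LHX4-AS1 cannot be told apart from their partners. Cytosolic ribosomal protein genes, at the other end, rose in 65 of 74 (median 0.64).

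**Figure D5:**
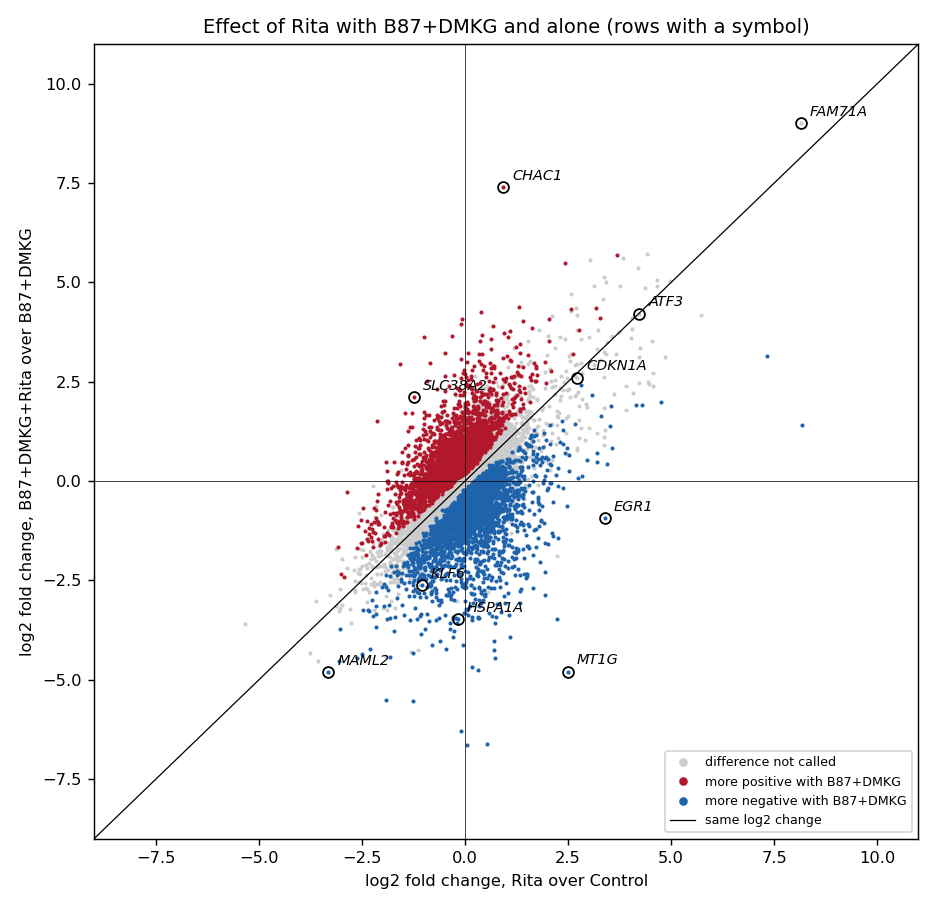
Log2 fold change in B87+DMKG+Rita over B87+DMKG (y axis) against that in Rita over Control (x axis) for each tested row with a symbol, coloured by the test of the difference (red more positive, blue more negative with B87+DMKG, grey not called). ATF3, CDKN1A and FAM71A lie near the line of equal change, and CHAC1 (7.40) and MT1G (-4.79) lie far from it.

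Rita had partly the same effect with and without B87+DMKG. Over 13342 rows that name 1 gene, log2 changes in B87+DMKG+Rita over B87+DMKG and in Rita over Control correlated with Pearson's r of 0.524 and Spearman's rho of 0.459; these comparisons share no library, and genes are not independent replicates. The test of the difference passed for 7897 rows (48.6%), 3933 in the positive direction (24.2%) and 3964 in the negative (24.4%). Differences of at least 1 on the log2 scale were positive in 1105 rows (6.8%) and negative in 2019 (12.4%). By the same limit Rita over Control had 992 rises (6.1%) and 1280 falls (7.87%), the triple treatment over Control 1239 (7.62%) and 1938 (11.9%), and B87+DMKG over Control 2073 (12.7%) and 1318 (8.11%). Of the 5383 rows that rose, 2916 had a positive difference, 167 a negative one and 2300 none that passed. Of the 5554 that fell, 2959 had a negative difference, 304 a positive one and 2291 none that passed. The difference contains the change by which these rows were sorted. Rises therefore lean to positive and falls to negative differences by construction, and the split is only a description. Among single-gene rows that averaged at least 50 normalized reads over the 4 groups, the largest positive differences after CHAC1 were those of SLC38A2 (3.36), LINC01433 (3.16, or 1.93 without B87+DMKG libraries 1 and 2), UBL3 (3.13) and ADM2. IL1B, with fewer reads, had 3.18. SLC38A2, an amino acid transporter, had 4748, 4185, 4963 and 3345 normalized reads in B87+DMKG+Rita libraries, against 945, 743, 1116 and 1184 in B87+DMKG libraries, and fell with Rita alone (-1.25). The lowest among the same rows were MT1G (-7.29), RGPD1 (-7.13), GOLGA8R (-5.70), GOLGA8A (-5.06) and ASMTL-AS1 (-4.73). RGPD1, GOLGA8R, GOLGA8A and MT1G belong to duplicated families. In B87+DMKG+Rita over B87+DMKG, GOLGA8R was not called without B87+DMKG+Rita library 2 (limma adjusted p = 0.104). Nor was it called without B87+DMKG libraries 1 and 2 (limma adjusted p = 0.0507).

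Set against B87+DMKG+Nutlin-3, the triple treatment with Rita differed in 7856 rows (48.3%), higher in 3981 (24.5%) and lower in 3875 (23.8%). By at least 1 on the log2 scale 1604 were higher (9.87%) and 1202 lower (7.39%). The doses of Rita and Nutlin-3 differ, so this compares treatments and not the agents at 1 dose. MDM2 was lower with Rita (7154 to 8161, against 12768 to 15651 with Nutlin-3; log2 difference -0.90 ± 0.09), and so were CDKN1A (-0.48) and GDF15 (-0.64). CHAC1 was higher (0.92 ± 0.36, adjusted p = 0.0321). Among single-gene rows that averaged at least 50 normalized reads over both groups, the largest differences were those of FAM71A, TMEM88 (5.70), HIC1 (5.09), NANOS1 (4.99) and NHLH1 (4.67) on the higher side, and RGL1 (-4.72), MAML2 (-4.42), MAML3 (-3.76), KLF2 (-3.63) and ZNF804A (-3.61) on the lower. HIC1, a transcriptional repressor that p53 raises, had 138, 168, 188 and 201 normalized reads in B87+DMKG+Rita libraries, against 2.02, 4.93, 1.85 and 12 in B87+DMKG+Nutlin-3 libraries. KLF2 had 358, 664, 551 and 690 in B87+DMKG+Rita libraries, against 7328, 6981, 8492 and 4902 in B87+DMKG+Nutlin-3 libraries. Of the 26 stress response genes 20 were higher with Rita and 1 lower, and of the 42 p53 targets 12 were higher and 9 lower.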

How the data were processed

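The deposited table holds normalized signal per gene, which the authors made from read counts with DESeq2; STAR 2.4.0, FastQC, Picard and SAMtools are also named, per the submitters' processing notes. The file header names hg19, while those notes list mm10; neither names a counting strand or annotation. All 31 value columns were matched to labelled samples. In every library the values were whole multiples of 1 read within 0.1 of a step (690132 values above 0, all whole), and library totals were 33.4 M to 82.5 M reads.

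Differences were tested with limma 3.58.1 (R 4.3.3, trended eBayes) on log2(value + 1) over all 31 libraries, for the 16259 of 74834 rows with a mean of at least 10, with Benjamini-Hochberg adjustment at 0.05 over all rows. Python 3.11.15, pandas 2.3.3, NumPy 2.4.6, SciPy 1.17.1 and matplotlib 3.10.9 gave single-value exact permutation tests, summaries and plots. The interaction is the Rita effect with B87+DMKG minus that without. Of the rows tested 2416 had no symbol and 501 joined several genes. edgeR 4.0.16 and DESeq2 1.42.0 on the recovered reads, other filters, pseudocounts and scalings, a replicate block and leaving out libraries were alternatives. On simulated data with the B87+DMKG means in every group, 67, 67 and 66 rows were changed 1.5-fold, 2-fold and 4-fold in B87+DMKG+Rita. Of these limma found 50.7%, 80.6% and 98.5%, and it called 27 unchanged rows among 16259 rows. Far fewer rows were changed there than were called in the data, so these rates may not hold for the real comparison.

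Genes named are the 12 largest rises and falls among called single-gene rows whose mean reached 50 and whose groups did not overlap, up to 5 members per list, the 5 largest in each direction for the interaction and for the comparison with B87+DMKG+Nutlin-3, and fixed genes of the pathways; other list members named were chosen after their values were seen. Some genes under this rule are not reported here. The gene lists and members were chosen with earlier results of these data known. Some genes, such as SESN2 in the p53 and stress response lists, belong to several lists. Counts of different lists are therefore not independent. Promoter sequences are RefSeq, GRCh38.p14, and table coordinates are hg19.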

Additional observations from a re-analysis of the deposited data

Results flagged for a closer look

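Among the genes printed with every library and 4 library measures, 120 groups of 4 were examined for a library far from the other 3, and 5 stood out; chance gives about 1 in 20 groups. RGPD1 had 9.33 normalized reads in B87+DMKG+Rita library 4 and 0 in the other 3. In B87+DMKG, BCL2 was low in library 3 (151, against 206 to 213), HBEGF was low in library 1 (109, against 172 to 180) and DUSP6 was low in library 4 (2886, against 3306 to 3379). FOSB was high in B87+DMKG library 4 (766, against 535 to 548). In all 5 genes the 2 groups did not overlap, as in 59.3% of all rows tested. RGPD1 was named among the largest falls, for which groups that do not overlap were required.

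The effect of Rita differed with and without B87+DMKG in 7897 rows by the limma test of the difference. Among rows with a mean of at least 50, the highest differences were those of CHAC1 (6.48), SLC38A2 (3.36), LINC01433 (3.16), UBL3 (3.13) and ADM2 (3.09), as differences of log2 changes. The lowest were those of MT1G (-7.29), RGPD1 (-7.13), GOLGA8R (-5.70), GOLGA8A (-5.06) and ASMTL-AS1 (-4.73). GOLGA8R lost its call in B87+DMKG+Rita over B87+DMKG without some libraries, as given above. Without Control library 3, the lowest of its group in CHAC1, the difference of CHAC1 was 7.02 (adjusted p = 9.9e-14), and its change in Rita over Control was 0.37 (adjusted p = 0.292), no longer called.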

How the results depend on the processing

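Counts of called rows in B87+DMKG+Rita over B87+DMKG were 10981 with edgeR and 11105 with DESeq2 on recovered reads, against 10937 with limma; no filter gave 13325, since more rows were tested. A log2 limit of 1 left 4286 there, 3124 for the interaction, 3177 for B87+DMKG+Rita over Control, 3391 for B87+DMKG over Control, 2272 for Rita over Control and 2806 against B87+DMKG+Nutlin-3. Leaving out 1 library at a time gave 10400 to 10908, 7218 to 7998, 8995 to 9518, 9240 to 9662, 7713 to 8135 and 7275 to 7577 in the same order. Without B87+DMKG libraries 1 and 2, chosen after seeing the data, 9760 were called.

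Replicate numbers did not pair the samples: deviations of same-numbered B87+DMKG+Rita and B87+DMKG libraries correlated at 0.018, 0.057, -0.070 and 0.119. A replicate block gave 10829 calls, and 7733, 9705, 9808, 8333 and 7761 for the other comparisons.

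Scaling changed some signs, and the cause was not tested. With the same total, medians became -0.063 (BCL2 family), -0.18 (NF-kB), -0.15 (cholesterol synthesis), -0.077 (replication), -0.0099 (ribosome biogenesis) and -0.086 (ubiquitin scaffolds), BIRC5 -0.15 and PARP1 -0.047. Quantile scaling gave -0.0044 for cholesterol synthesis, -0.014 for replication, -0.022 for aryl hydrocarbon receptor targets and -0.11 for KRT19. KRT19 also lost its call without B87+DMKG libraries 1 and 2 (0.078, limma adjusted p = 0.570). The same total without mitochondrial rows gave BIRC5 -0.18, PARP1 -0.077 and HK2 -0.010. Of the single-gene values under alternatives 3868 kept direction and side of the threshold, 38 in 14 genes lost the call, 7 gained it and 6 changed sign. Depth limits genes near 0 reads, such as CA9.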
